A study of Mus musculus with 2 samples.

Results

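Type 1 conventional dendritic cells (cDC1) were examined among CD45.2+ tumor-infiltrating immune cells (TIIs) of B16-OVA melanomas, by droplet scRNA-seq. A cell was taken as a member when it held at least 2 unique molecular identifiers (UMIs, which count captured mRNA molecules) of *Xcr1* and *Clec9a* together, at most 1 UMI of the *Cd3* genes, fewer than 10 of the *C1q* genes and fewer than 3 of *Siglech*. The rule found 121 members among the 13470 cells with at most 25% mitochondrial UMIs, 70 of them control and 51 creatine cells. The study compared tumors of mice given PBS with tumors of mice given 10.5 mg of creatine per day by intraperitoneal injection from day 3. All mice were male C57BL/6J animals of 8 to 12 weeks carrying the same tumor line, a mouse melanoma that expresses ovalbumin. By the labels tumors were taken on day 14 and 4 were pooled per group, whereas the study's text gives day 10 in one place and 5 mice per group in another, and live CD45.2+ cells were sorted. Each condition is thus 1 library and animals cannot be told apart. Of the control library, the title and treatment entries give no creatine, whereas its protocol entry describes creatine injection, and the first 2 entries were followed here. With 1 library per condition and members chosen by their own transcripts, no test was made, and the 95% intervals given (exact Poisson for levels, exact Clopper-Pearson for shares and ratios) cover counting error only.

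cDC1 are the dendritic cells that specialize in taking up dead cells and presenting their antigens on MHC class I to CD8 T cells, a process called cross-presentation. They depend on the transcription factors Irf8 and Batf3, sense dead cells through the receptor encoded by *Clec9a*, and carry the chemokine receptor Xcr1. In tumors they are known as sources of Cxcl9 and Cxcl10, chemokines that draw T cells carrying Cxcr3, and interferons raise both chemokines.

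The 70 control members were 0.967% of the kept control cells (95% interval 0.754 to 1.22) and the 51 creatine members 0.819% of the kept creatine cells (0.610 to 1.08), and these intervals overlapped. The shares depended on cells at the threshold: with at least 3 UMIs they were 0.732% and 0.482%, and with both gate transcripts 0.649% and 0.337%. Control members held 1288519 UMIs and creatine members 819992, and the median member held 16864.5 and 14014. Of the cells that reached 2 UMIs of the gate genes, 111 in control and 95 in creatine, the *C1q* condition was failed by 23 and 29, the *Cd3* condition by 20 and 9 and the *Siglech* condition by 3 and 8. The libraries shared 30 cell barcodes, of which 1 belonged to a creatine member and 0 to control members. *Xcr1* lies on chromosome 9 (GRCm38, 123852315 to 123862029, minus strand) and *Clec9a* on chromosome 6 (129408862 to 129424763, plus strand).

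The label was checked against transcripts that the rule did not use. Both gate transcripts were present in 47 of 70 control members (67.1%, 54.9 to 77.9) and in 21 of 51 creatine members (41.2%, 27.6 to 55.8). Of the remaining members, 20 in control and 27 in creatine held *Clec9a* alone, and 3 in each library held *Xcr1* alone. Among cells with both transcripts, 46 of 47 control and 20 of 21 creatine cells held UMIs of at least 4 of the 8 markers *Wdfy4*, *Naaa*, *Itgae*, *Batf3*, *Irf8*, *Cadm1*, *Tlr3* and *Clnk*. Among members with 1 transcript, 10 of 23 control and 18 of 30 creatine cells did so. The same was seen in 16 of 77 control and 20 of 73 creatine type 2 cells, and in 2 of 2036 and 2 of 1933 CD8 T cells. Such a count depends on depth, and the median UMIs per cell were 18676 and 19928 in cells with both transcripts, 12826 and 11899 in members with 1 transcript and 12060 and 10536 in type 2 cells. With cells thinned to 2000 UMIs, *Wdfy4* was in 66.0% of control cells with both transcripts, 21.7% with 1 and 26.7% of type 2 cells. In creatine these shares were 70%, 20.7% and 9.59%. For *Irf8* they were 97.9%, 65.2% and 20% in control and 85%, 58.6% and 43.8% in creatine. The count of markers itself was not taken at equal depth. Between libraries, most main results are given for cells with both transcripts too. Against type 2 cells, most values are for all members only. The split into cells with 1 and with both transcripts was chosen after the data had been seen.

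**Figure D1:**
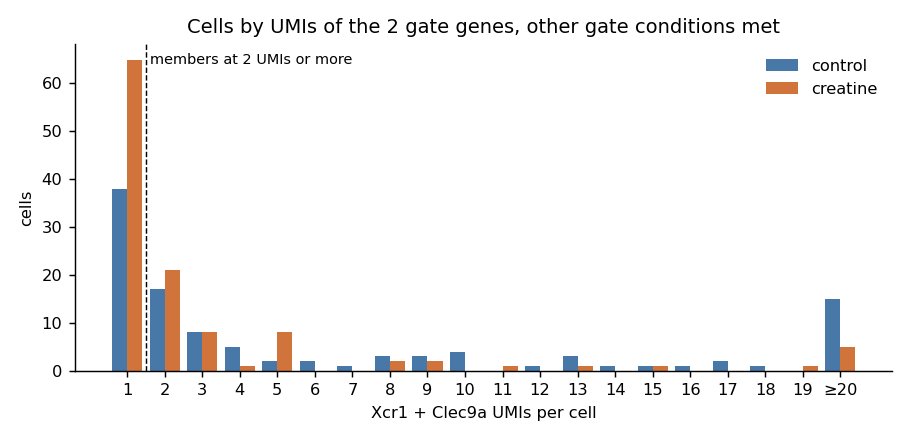
Number of cells (y axis) by UMIs of *Xcr1* and *Clec9a* per cell (x axis) among cells that met the other gate conditions, from 1 UMI up, in the control (blue) and creatine (orange) libraries. Just outside the threshold lay 38 control and 65 creatine cells with 1 UMI, just inside it 17 and 21 cells with 2 UMIs, and 40 and 21 cells had at least 5.

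Levels at the gate threshold were compared with those further inside it. *Wdfy4*, which encodes a protein needed for cross-presentation, stood at 227 counts per 1000000 UMIs (CPM) in control cells with 1 gate UMI, just outside the gate, and at 216 CPM in those with 2, just inside it. In control cells with at least 5 gate UMIs it stood at 622 CPM. In the creatine library the corresponding *Wdfy4* levels were 72.5, 128 and 529 CPM, so the cells nearest the threshold were low in both libraries. *Lyz2*, a lysozyme gene of monocytes and macrophages, stood at 5458 CPM in creatine cells with 1 gate UMI, at 3286 CPM in those with 2 and at 979 CPM in those with at least 5. The control *Lyz2* levels were 2451, 844 and 157 CPM. Among members, those with 1 transcript made up 50.2% of the UMIs in the creatine library and 23.8% in the control library, and they held 1377 of 1575 and 225 of 369 *Lyz2* UMIs.

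**Figure D2:**
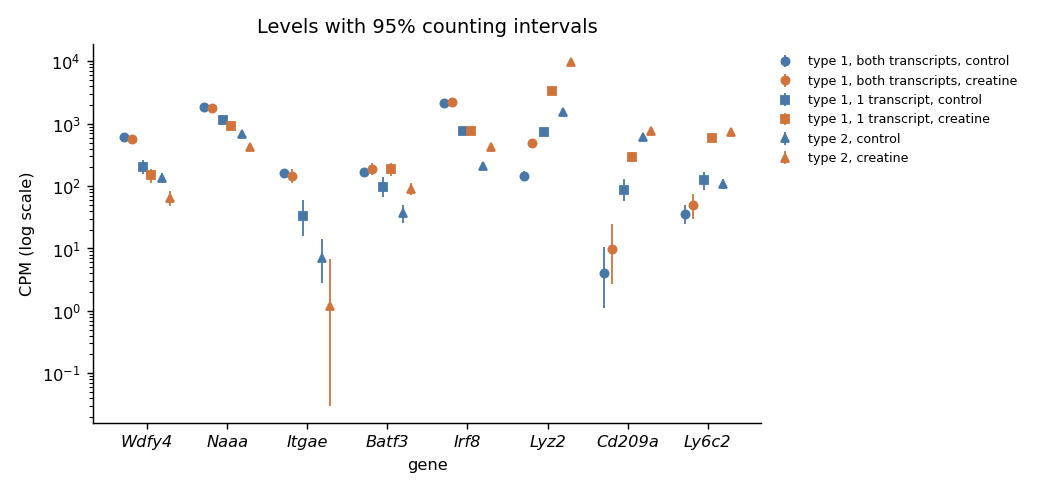
Level of 8 genes in CPM (y axis, log scale) in type 1 cells with both gate transcripts (circles), type 1 cells with 1 transcript (squares) and type 2 cells (triangles) of the control (blue) and creatine (orange) libraries, with 95% counting intervals; a level of 0 (*Itgae*, creatine squares) is not drawn. The first 5 genes are highest in circles except *Batf3* in creatine, where circles and squares (191 and 187 CPM) coincide, and *Lyz2*, *Cd209a* and *Ly6c2* are lowest in circles; *Cd209a* is among the genes that chose the type 2 cells.

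Type 1 cells were then compared with type 2 conventional dendritic cells of the same library. Type 2 cells held at least 2 UMIs of *Cd209a*, *Mgl2* and *Clec10a*, at least 1 of *Flt3* and *Zbtb46*, at most 1 of *Xcr1* and *Clec9a* and at most 2 of *Fscn1*, *Ccr7* and *Ccl22*, and met the same *Cd3*, *C1q* and *Siglech* conditions. There were 77 in control and 73 in creatine. Of 6804 genes with at least 20 UMIs in each library, 195 (2.87%) were at least 2-fold higher in type 1 cells in both libraries and 193 (2.84%) at least 2-fold lower. These counts were 89 and 112 with dividing cells left out and 74 and 120 at 50 UMIs or more, and the lower count was 334 with a wider type 2 gate that drops the *Flt3* and *Zbtb46* condition, 315 with a gate of 3 UMIs and 370 in cells with both transcripts. Of 20 tested type 1 identity genes, 17 were at least 2-fold higher in both libraries and 0 lower. The medians were 2.55 (control) and 2.48 (creatine) on the log2 scale, against 0.02 and 0.03 over all genes. In cells with both transcripts the medians were 2.79 and 3.16. The filter sums the UMIs of both cell sets, so low genes can pass it through the set where they are high. The list had 25 genes in the files. Counts and medians of lists against type 2 cells, here and below, therefore describe only the genes that passed. In the control library, *Irf8* stood at 1800.5 CPM (1728 to 1875) in type 1 and 212 CPM in type 2 cells, a log2 ratio of 3.08 (2.88 to 3.29). In the creatine library, *Irf8* stood at 1490 and 424 CPM, a log2 ratio of 1.81 (1.64 to 1.99). *Batf3*, the partner factor of Irf8, was 152 against 36.7 CPM in control (log2 ratio 2.05, 1.54 to 2.60) and 189 against 91.1 CPM in creatine (1.05, 0.65 to 1.47).

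Single genes of the type were also examined. The gate genes themselves stood at 424 and 249 CPM (*Xcr1*) and 199 and 249 CPM (*Clec9a*) in control and creatine members, which describes the choice of cells. *Itgae*, which encodes the integrin CD103, was 18.7-fold higher in type 1 cells in control (log2 ratio 4.22, 3.15 to 5.56) and rested on 1 type 2 UMI in creatine (5.93, 3.399 to 11.26). *Cadm1*, an adhesion molecule, was 18.9-fold higher in control and 20.9-fold higher in creatine. *Naaa*, an amidase that serves as a marker of the type, was 2.49-fold and 3.17-fold higher, and *Wdfy4* 3.86-fold and 5.60-fold. The 3 tested identity genes that missed the threshold were *Btla*, *Ifi205* and *Cbfa2t3*. Of 17 tested type 2 identity genes, 11 were at least 2-fold lower in type 1 cells in both libraries and 0 higher. Over all genes, 2.84% were lower and 2.87% higher. The median over type 2 identity genes was -2.45 in control and -1.11 in creatine, and -3.89 and -2.46 in cells with both transcripts. *S100a4*, a calcium-binding protein, was 9.61-fold lower in control and 2.74-fold lower in creatine.

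**Figure D3:**
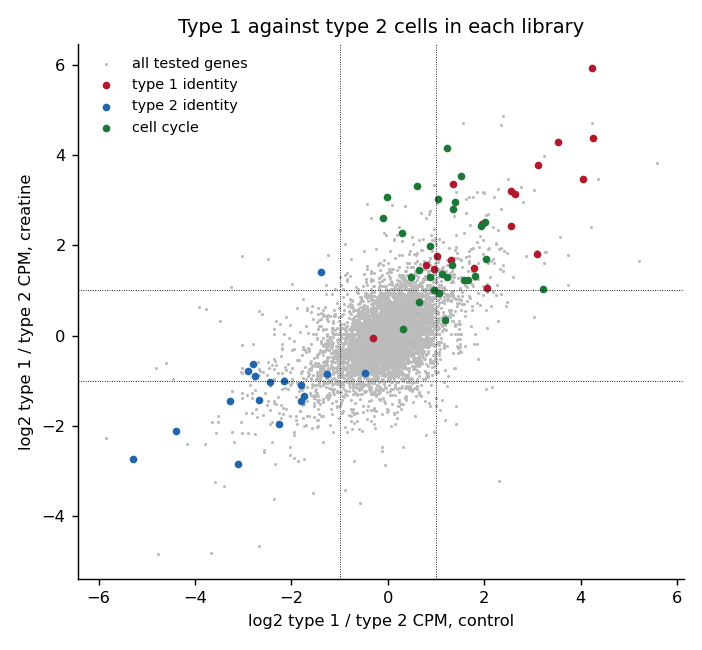
Log2 ratio of type 1 over type 2 CPM in the control library (x axis) and the creatine library (y axis), each point 1 gene with at least 20 UMIs in each library, with type 1 identity (red), type 2 identity (blue) and cell cycle genes (green) marked; dotted lines mark 2-fold. Of 20 type 1 identity genes 17 lie beyond 2-fold at the upper right and of 17 type 2 identity genes 11 at the lower left.

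Genes for handling dead cells and antigens were unevenly distributed. Of 17 tested genes of uptake and cross-presentation, 8 were at least 2-fold higher in type 1 cells in both libraries and 2 were lower. Over all genes, 2.87% were higher and 2.84% lower. Higher were *Wdfy4* and *Naaa*, the Rab GTPases *Rab43* and *Rab7b*, the scavenger receptor *Cd36*, *Ly75* (the endocytic receptor DEC-205), *Havcr2* (Tim-3) and the nuclease *Dnase1l3*, of which *Naaa*, *Wdfy4*, *Rab43*, *Rab7b* and *Ly75* are type 1 identity genes too. *Cd36* stood at 54.3 CPM in control type 1 cells, 18.2-fold above type 2 cells. In creatine it stood at 34.1 CPM with 0 UMIs in type 2 cells, which makes it at least 9.50-fold higher against a floor of 3 counts in the type 2 cells. Lower were *Cybb*, the catalytic subunit of the NADPH oxidase (79.2 against 394 CPM in control, 302 against 863 CPM in creatine), and the receptor *Lrp1*. The other genes of the list, among them *Sec22b*, *Axl* and *Unc93b1*, did not pass in both libraries.

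Of 12 tested sensors, *Tlr3*, the receptor for double-stranded RNA, and *Tlr11*, a receptor for profilin, were at least 2-fold higher in both libraries, and *Tlr2* and *Ddx58* (RIG-I) were lower. *Tlr3* stood at 160 against 13.9 CPM in control and at 93.9 against 4.79 CPM in creatine. Of 17 tested MHC class I pathway genes and 13 class II pathway genes, 0 passed 2-fold in both libraries, which at shares of 2.87% and 2.84% over all genes is near the background. The 13 class II genes together stood at 39931 CPM in control type 1 and 44408 CPM in control type 2 cells, and at 38292 and 28354 CPM in creatine. The type 1 level was therefore below the type 2 level in one library and above it in the other.

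Cell cycle genes were higher in type 1 cells. Of 28 tested, 15 were at least 2-fold higher in both libraries and 0 lower, against 2.87% and 2.84% of all genes. Among the 15 were the DNA helicase subunit *Mcm3*, the topoisomerase *Top2a* and *Stmn1*, which encodes a microtubule regulator. *Top2a* stood at 312 against 133 CPM in control (log2 ratio 1.23, 0.94 to 1.52) and at 97.6 against 39.5 CPM in creatine (1.30, 0.70 to 1.93). A cell was called dividing when it held UMIs of at least 2 of 8 cell cycle genes. By this measure 39 of 70 control type 1 cells (55.7%, 43.3 to 67.6) and 19 of 77 control type 2 cells (24.7%, 15.6 to 35.8) were dividing. In creatine they were 11 of 51 (21.6%, 11.3 to 35.3) and 5 of 73 (6.85%, 2.26 to 15.3). Type 1 cells held more UMIs, with medians of 16864.5 against 12060 in control and 14014 against 10536 in creatine, which raises such a share. The dividing share itself was not taken at equal depth. With cells thinned to 2000 UMIs, *Mki67* was found in 18.6% of control type 1 and 6.67% of control type 2 cells. In creatine these shares were 4.08% and 4.11%. At 1000 UMIs they were 21.4% and 5.19% in control and 8% and 1.37% in creatine. With dividing cells left out, which removes cells by genes of this list, the median of the list was -0.35 in place of 1.15 in control and 0.76 in place of 1.63 in creatine.

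Outside the lists, the genes furthest above type 2 cells were *Agpat3*, *Cxcr3*, *Tbc1d4*, *Bcl2l14*, *AC163354.1*, *Rtl8a*, *Txndc16*, *Rtl8b*, *Serpinf1* and *Spc24*. *Cxcr3*, the receptor for Cxcl9 and Cxcl10, stood at 65.2 CPM in control and 37.8 CPM in creatine type 1 cells, 9.38-fold and 15.8-fold above type 2 cells, and was found in 34 of 70 and 13 of 51 members. *Agpat3*, an acyltransferase of phospholipid synthesis, was 18.8-fold and 26.5-fold higher. *Txndc16*, a thioredoxin domain protein, was 18.5-fold higher in control and 5.29-fold in creatine. *Spc24*, a kinetochore subunit, belongs with the dividing cells by its function. Among the genes furthest below type 2 cells were *Fn1*, *Hpgd*, *F13a1*, *Hacd4*, *Mrc1*, *Tmem176b*, *Mgst1*, *Mcemp1* and *Ifitm6*. *Fn1*, which encodes fibronectin, stood at 3.88 against 105 CPM in control and at 17.1 against 496 CPM in creatine. *Ifitm6* was 9.37-fold and 4.44-fold lower. *Rtl8a* and *Rtl8b* are close copies, between which counting may have split the reads.

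Creatine and control members were then compared. Of 7702 genes with at least 20 UMIs, 406 (5.27%) were at least 2-fold higher in creatine members and 501 (6.50%) at least 2-fold lower. With dividing cells left out, 416 were higher and 180 lower, so the balance turned. It turned too with the 4 members of extreme genes left out (420 and 398), at no more than 10% mitochondrial UMIs (432 and 413) and at 50 UMIs or more (204 and 172). Among cells with both transcripts the numbers were 265 (4.09%) and 553 (8.52%) of 6487. The median log2 ratio was 0.00 over all genes in members, and -0.05 in cells with both transcripts. Type 1 identity genes leaned to the control side among all members, with a median of -0.41 and 19 of 22 tested genes below 0. Among cells with both transcripts their median was -0.035, and 9 of 21 lay above 0. The shares of all tested genes above 0 were 50.8% in members and 47.4% in cells with both transcripts. *Wdfy4* stood at 521 CPM in control and 362 CPM in creatine members (log2 ratio -0.52, -0.73 to -0.32), and at 619 and 578 CPM in cells with both transcripts (-0.10, -0.32 to 0.12). *Irf8* likewise stood at 2124.5 and 2223 CPM in cells with both transcripts (0.07, -0.05 to 0.18). Type 2 identity genes went the other way, with a median of 1.34 over 19 genes in all members. In cells with both transcripts it was 1.63 over 13 genes. Low genes pass the filter of at least 10 UMIs through the library where they are high. With no filter, 16 of all 21 genes were higher in creatine in those cells, 3 lower and 2 at 0 in both libraries.

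In a list of 20 monocyte and macrophage markers, 15 were higher and 5 lower in creatine members. In cells with both transcripts 12 were higher, 6 lower and 2 at 0 in both libraries. Of all tested genes, 50.8% lay above 0 in members and 47.4% in cells with both transcripts. The 20 genes of that list summed to 1886 CPM in control and 5871 CPM in creatine members, with *Plac8* the most abundant in control (35.0% of the sum) and *Lyz2* in creatine (32.7%). Of these genes *Vcan* and *Adgre4* were at 0 in control members and 0 genes in creatine members, and *Ccr2* and *Csf1r* are in the type 2 identity list too. In cells with both transcripts the sums were 1379 and 2586 CPM, in type 2 cells 4544 and 16989 CPM, and over all kept cells 9028 and 9691 CPM. *Lyz2* stood at 286 CPM in control and 1921 CPM in creatine members (log2 ratio 2.75, 2.58 to 2.91), and at 147 and 485 CPM in cells with both transcripts (1.73, 1.41 to 2.05). Of the creatine *Lyz2* UMIs, 3 members with 1 transcript held 871 of 1575, and among cells with both transcripts 3 of 21 held 131 of 198, with medians per cell of 2 in control and 3 in creatine. *Ly6c2*, an inflammatory monocyte marker, was 5.75-fold higher in creatine members but 1.38-fold in cells with both transcripts (log2 ratio 0.46, -0.41 to 1.29). The part of these cells or of their RNA in the differences below was not tested. T cell markers summed to 66 and 104 CPM and NK cell markers to 97 and 128 CPM, against 86.4 and 62.3 CPM and 117 and 49.1 CPM in type 2 cells. In cells with both transcripts T cell markers summed to 67.2 and 58.8 CPM and NK cell markers to 111 and 71.1 CPM. B cell markers summed to 139 and 215 CPM in all members, of which *Ighm* made up 96.1% and 93.8%, with *Cd79a*, *Ms4a1* and *Pax5* at 0.

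Interferon-stimulated genes were higher in creatine members. All 22 genes of the list were tested and above 0, and 20 were at least 2-fold higher and 0 lower, against 5.27% and 6.50% of all genes, with a median log2 ratio of 2.07. In cells with both transcripts 16 of the 22 reached 20 UMIs over both libraries, a filter that low genes pass through the library where they are high, so no count over those is given. Over all 22 genes with no filter, 20 were higher in creatine and 2 lower in those cells, where 47.4% of all tested genes lay above 0. The list summed to 621 CPM in control and 2123 CPM in creatine there. *Mx1* and *Stat2* missed 2-fold among all members, and *Mx1* stood at 67.2 CPM in control and 58.8 CPM in creatine cells with both transcripts. *Isg15*, a ubiquitin-like antiviral protein, stood at 95.5 CPM in control and 450.0 CPM in creatine members, a log2 ratio of 2.24 (1.94 to 2.54), and at 70.2 and 441 CPM in cells with both transcripts (2.65, 2.24 to 3.07). *Ifit2*, of the family that blocks translation of viral RNA, was found in 9 of 70 control and 22 of 51 creatine members, at 8.54 and 113 CPM. *Zbp1*, a nucleic acid sensor, stood at 112 and 350.0 CPM (1.65, 1.35 to 1.95). With each cell thinned to 2000 UMIs, which left out 2 creatine members, *Isg15* was found in 12.9% of control (6.05 to 23.0) and 38.8% of creatine members (25.2 to 53.8). In cells with both transcripts these shares were 10.6% (3.55 to 23.1) and 35% (15.4 to 59.2), and the intervals overlapped. At 1000 UMIs the shares of members were 11.4% (5.07 to 21.3) and 22% (11.5 to 36.0), and these intervals overlapped too. Without thinning *Isg15* was found in 35 of 70 and 34 of 51 members. In NK cells, whose median depth was 4097.5 and 5624 UMIs, the shares at 2000 UMIs were 5.76% and 7.78%. In CD8 T cells they were 5.81% (4.83 to 6.93) and 10.5% (9.13 to 11.9), so the share was higher in creatine there too.

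The level of the list was also taken cell by cell. The 22 genes together reached a median of 5.79 UMIs per 10000 in control members (lowest 0, highest 50.1) and 15.9 in creatine members (lowest 0, highest 147). In cells with both transcripts the medians were 5.43 and 12.8, and the ranges overlapped. A single creatine cell held 37.9% of the UMIs of this list in that subset, while no control cell of it held more than 12.8%. In type 2 cells the medians were 12.03 and 21.2, and the median log2 ratio of the list between libraries was 0.87. The list was lower in type 1 than in type 2 cells in control, with a median log2 ratio of -1.36, and of -0.66 in creatine. Over all kept cells its sum was 1255 CPM in control and 1636 CPM in creatine.

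**Figure D4:**
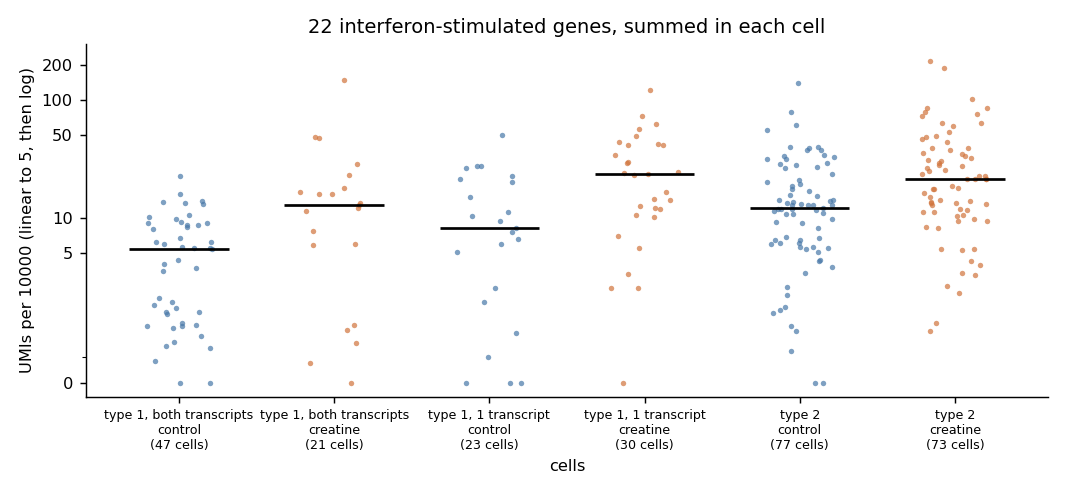
UMIs of 22 interferon-stimulated genes per 10000 UMIs of each cell (y axis, linear to 5 and logarithmic above), each point 1 cell, the black line the median, by cell set and library. The creatine medians of type 1 cells (12.8 and 23.4) lie above the control medians (5.43 and 8.09), and the points overlap.

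Genes that interferon-γ induces were also higher. Over all 23 genes of the list with no filter, 23 were higher in creatine members. In cells with both transcripts 21 were higher and 1 lower. Of all tested genes, 50.8% and 47.4% lay above 0 in these sets. The medians over list genes with at least 10 UMIs were 1.46 in members and 1.35 in cells with both transcripts. In type 2 cells the median was 0.83, and over all kept cells the list summed to 1984 CPM in control and 2912 CPM in creatine. *Gbp2*, a guanylate-binding protein that acts on pathogen vacuoles, stood at 117 and 510 CPM (log2 ratio 2.12, 1.85 to 2.40), and at 33.6 and 203.5 CPM in cells with both transcripts. *Irf1*, a transcription factor of the response, stood at 66.7 and 184 CPM (1.46, 1.07 to 1.86). Among those with at least 20 UMIs, the class II regulator *Ciita* had the lowest log2 ratio (0.19, and -0.030 in cells with both transcripts). *Tgtp1* and *Tgtp2* are near-identical copies, and their values are uncertain.

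*Cxcl9* and *Cxcl10* lie near each other on chromosome 5, and the 250 bases before the start of each are shown because both levels were higher in the creatine library. They are from RefSeq (GRCm38.p6), minus strand, at chr5:92328080-92328329 and chr5:92348890-92349139. Capitals mark matches on either strand to the core of the interferon-stimulated response element (GAAA, any 2 bases, GAAA) or to GGGANTTCC, a form of the NF-κB motif. TTCNNNGAA, the STAT motif, was searched too and had 0 matches.
Cxcl9: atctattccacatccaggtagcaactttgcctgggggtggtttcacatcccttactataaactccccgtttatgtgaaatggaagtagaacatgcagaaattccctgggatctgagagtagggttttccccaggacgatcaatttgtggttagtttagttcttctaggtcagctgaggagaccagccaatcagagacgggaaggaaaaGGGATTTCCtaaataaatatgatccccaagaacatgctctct
Cxcl10: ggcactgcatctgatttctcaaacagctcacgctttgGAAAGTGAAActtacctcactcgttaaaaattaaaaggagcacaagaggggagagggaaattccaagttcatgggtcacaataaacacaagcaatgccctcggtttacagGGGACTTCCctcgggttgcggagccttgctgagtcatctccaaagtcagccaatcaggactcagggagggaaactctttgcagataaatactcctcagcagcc
The *Cxcl9* window held 1 match, the NF-κB form 42 bases before the start. The *Cxcl10* window held the response element core 213 bases and the NF-κB form 103 bases before the start. Of 32851 such RefSeq windows, the response element core is found in 2.98%, TTCNNNGAA in 7.02% and GGGANTTCC in 1.43%, and a match describes letters and not binding.

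*Cxcl9* stood at 472 CPM (435 to 511) in control and 1035 CPM (967 to 1107) in creatine members, a log2 ratio of 1.13 (0.98 to 1.29). In cells with both transcripts it stood at 263 and 711 CPM (1.44, 1.19 to 1.68). It was carried by 39 of 70 control (55.7%) and 28 of 51 creatine members (54.9%), so the share of cells with a UMI was alike before thinning while the level was higher. At 2000 UMIs the shares were 34.3% (23.3 to 46.6) and 46.9% (32.5 to 61.7), against 2.52% and 2.60% in NK cells. In the creatine cells with both transcripts, 3 cells held 74.5% of the *Cxcl9* UMIs and 11 of 21 held none. *Cxcl10* stood at 10.1 and 159 CPM (log2 ratio 3.97, 3.15 to 4.92), with UMIs in 7 of 70 and 13 of 51 members. Members with 1 transcript held 109 of the 130 creatine UMIs, 86 of them in 3 cells. In cells with both transcripts *Cxcl10* rested on 3 control and 21 creatine UMIs, 19 of the latter in 3 cells (log2 ratio 4.08, 2.33 to 6.46). Type 2 cells had more of it, 139 and 841 CPM. *Cd40*, the receptor for T cell help, stood at 15.5 and 86.6 CPM (2.48, 1.75 to 3.27). The study displayed 6 activation genes, among them *Cxcl9*, *Cxcl10*, *Cd40*, *Batf3* and *Jun*. All were above 0 in members and in cells with both transcripts, with 3 at least 2-fold higher. Of all tested genes, 50.8% and 47.4% lay above 0 in these sets, and 5.27% and 4.09% were at least 2-fold higher. The study displayed the 6 genes from these same libraries, so they are not independent evidence of a direction.

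Other cytokines rested on few cells. *Ccl4* had 17 UMIs in control and 244 in creatine members, of which 1 cell with both transcripts held 87.7%. The same cell held 83.3% of the *Tnf*, 75.6% of the *Il12b*, 117 of 141 of the *Il1b* and 49.7% of the *Ifit1* UMIs of the creatine members. *Il12b*, a subunit of interleukin 12, was found in 2 cells of each library. *Il6* and *Il10* had 0 UMIs in both. *Ccr7*, which guides mature cells to lymph nodes, was found in 3 control members and 1 creatine member, and 1 control cell held 66.4% of its control UMIs and 75.4% of those of *Fscn1*. Of 23 tested maturation genes, 3 were at least 2-fold higher and 4 lower in creatine members, against 5.27% and 6.50% of all genes. Over all 26 maturation genes with no filter, 14 were higher in creatine and 11 lower in cells with both transcripts. Of all tested genes, 47.4% lay above 0 in those cells.

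Cell cycle genes were lower in creatine members. Of 30 tested, 17 were at least 2-fold lower and 0 higher, against 6.50% and 5.27% of all genes, with a median log2 ratio of -1.18. At least 2-fold lower in cells with both transcripts were 10 of 30, against 8.52% of all genes (median -0.73). With dividing cells left out the median turned to 0.62. *Mki67*, a proliferation antigen, stood at 243 and 84.1 CPM (-1.53, -1.93 to -1.15) and at 303 and 125 CPM in cells with both transcripts (-1.28, -1.74 to -0.85). The log2 ratios of the helicase subunits *Mcm2*, *Mcm3*, *Mcm4*, *Mcm5*, *Mcm6* and *Mcm7* ran from -0.79 to 0.39, with *Mcm3* at 115 and 102 CPM. In cells with both transcripts, 31 of 47 control (66.0%, 50.7 to 79.1) and 8 of 21 creatine cells (38.1%, 18.1 to 61.6) were dividing, and these intervals overlap. The creatine cell with the most *Mki67* held 40.6% of its UMIs, and the one with the most *Cdk1* 69.6% of that gene's. In type 2 cells the list was lower in creatine too (median -1.59).

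**Figure D5:**
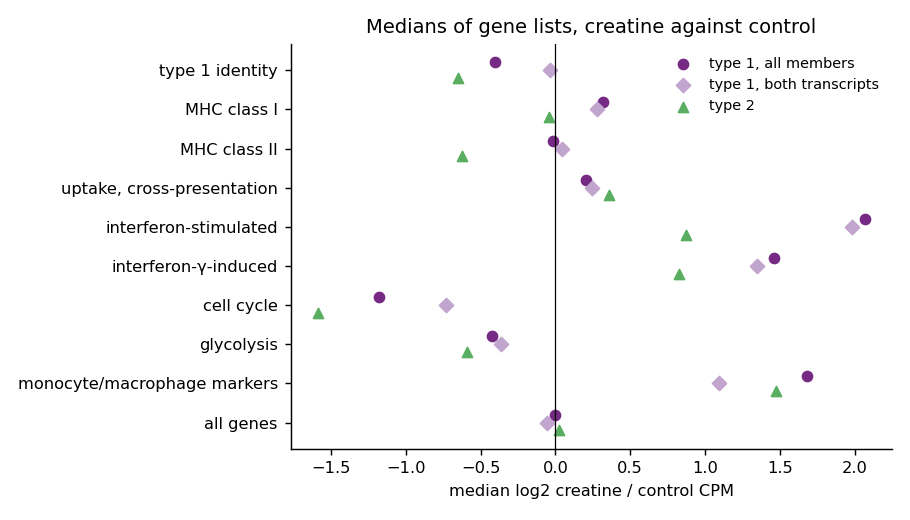
Median log2 ratio of creatine over control CPM (x axis) for 9 gene lists and for all genes, in all type 1 members (dark circles), in those with both gate transcripts (light diamonds) and in type 2 cells (triangles); genes with at least 10 UMIs in a set enter its median. Interferon-stimulated genes lie furthest to the right in type 1 cells (2.07 over 22 genes and 1.98 over 20), and cell cycle genes furthest to the left (-1.18 and -0.73). Low genes can pass the filter through the library where they are high, so the order of the diamonds is a description only.

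No gene of the MHC class I pathway (17 tested) or class II pathway (13 tested) reached 2-fold between libraries, near the shares over all genes of 5.27% and 6.50%, and their medians were 0.32 and -0.02 (0.28 and 0.04 in cells with both transcripts). *H2-K1* stood at 967 and 1457 CPM (0.59, 0.48 to 0.71), *B2m*, the class I light chain, at 2012 and 2729 CPM (0.44, 0.36 to 0.52) and *Ctss*, the protease that trims the invariant chain, at 641 and 1194 CPM (0.90, 0.76 to 1.03). *H2-Aa* stood at 6991 and 6823 CPM. Class I genes share sequence with each other, which makes their single values uncertain. Of 16 tested glycolysis genes 15 lay below 0 in creatine members and 0 reached 2-fold (median -0.42). Over all genes 3789 of 7702 lay below 0. With dividing cells left out the glycolysis median was -0.10. *Slc6a8*, the creatine transporter, had 2 UMIs in control and 0 in creatine members, too few for a ratio at this depth. *Ckb*, the brain-type creatine kinase, was carried by 63 of 70 and 44 of 51 members at 633 and 452 CPM (log2 ratio -0.48, -0.66 to -0.30), and at 735 and 667 CPM in cells with both transcripts (-0.14, -0.35 to 0.06). *Gatm*, the first enzyme of creatine synthesis, stood at 140.5 and 128 CPM and was 2.89-fold above type 2 cells in both libraries. *Ckmt1* and *Ckmt2* had 0 UMIs.

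The 8 genes furthest above control in creatine members were *Ifit1*, *Ccl4*, *Ifit3*, *Tnf*, *Cxcl10*, *Ifit2*, *Lyz2* and *Il12b*. *Ifit1* had 6 UMIs in control and 155 in creatine members, and without the cell that held the most, 78 UMIs in 15 cells were left in creatine. The 8 furthest below were *S100a8*, *S100a9*, *Hist1h2ap*, *Plet1*, *Retnlg*, *Hist1h2ae*, *Gpnmb* and *Dct*. A single control cell held all 238 UMIs of *S100a8*, 220 of 222 of *S100a9* and all 73 of *Retnlg*, which are neutrophil genes. Another control cell held 94.6% of the UMIs of *Dct* and 92.8% of those of *Gpnmb*, genes of the melanocyte lineage. Of the others, *Hist1h2ap* was spread over 46 of 70 control members (1298 CPM, against 48.8 CPM in creatine). *Plet1* had 187 UMIs in 16 control members and 2 in 1 creatine member. Histone genes such as *Hist1h2ap* and *Hist1h2ae* have near-identical copies, and their single values are uncertain.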

How the data were processed

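The authors used Cell Ranger (version 3.0.2, mm10, by the submitters' processing notes) and deposited raw UMI counts per gene in the cells called, without normalization. Here 408 control and 274 creatine barcodes above 25% mitochondrial UMIs were left out. Depth in kept cells had a median of 7688 and 8475 UMIs. Members were found by the gate, UMIs were summed per cell set and library and scaled to CPM, and a gene counted as higher or lower at 2-fold or more with at least 20 UMIs. In cells, 1 UMI equals 0.776 CPM in control and 1.22 CPM in creatine members. List medians took genes with at least 10 UMIs. A side at 0 was set to 3 counts. Intervals cover counting error only. No doublet caller removed cells. The 4 pooled tumors per library give no replicates, so no test was made. The ratio and its interval were tried on simulated Poisson counts. The interval assumes such counts, so that trial did not cover spread between cells.

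The members and the 23 gene lists were chosen with earlier results of these data known. Named genes were list members, the 10 genes with the largest and the 10 with the smallest type 1 over type 2 ratio (at least 100 UMIs, ranked by the library nearer to 1), and the 8 highest and 8 lowest in creatine (at least 50 UMIs, ranked by the interval bound nearest to 0). *Gpr141b*, *Ifi30* and *Cxcl11* were not matched by symbol. Some genes of the lists and of the named sets are not reported here. In the files 31011 of 31053 gene identifiers matched GENCODE M21 (GRCm38), the source of gene positions. Alternatives were a gate of at least 3 UMIs, the 6% of cells with the highest Scrublet scores left out, at most 10% mitochondrial UMIs, CPM computed after removing ribosomal protein and mitochondrial genes, equal weight per cell, dividing cells left out, at least 50 UMIs, a wider type 2 gate, and thinning to 1000 UMIs. Added after seeing the data were cells with both transcripts and the omission of 4 members with extreme genes. Python 3.11.15, numpy 2.4.6, pandas 2.3.3, scipy 1.17.1, matplotlib 3.10.9 and scanpy 1.11.5 were used.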

Additional observations from a re-analysis of the deposited data

How the results depend on the processing

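No paired analysis was possible because each condition is 1 library and the labels give no replicate numbers. A gate of at least 3 UMIs gave 30 creatine members, 0.732% of control and 0.482% of creatine cells. With it, 315 genes were lower than in type 2 cells, the type 1 identity median was -0.13 between libraries and 2.95 over type 2 cells in creatine, and the type 2 identity medians were -3.39 and -1.96. Cells with both transcripts numbered 47 (0.649%) and 21 (0.337%), with 370 genes lower than in type 2 cells and 265 higher in creatine, an identity median of -0.035 between libraries and 3.16 over type 2 cells in creatine, and type 2 identity medians of -3.89 and -2.46. With dividing cells left out, 89 genes were higher and 112 lower than in type 2 cells, and 180 were lower in creatine. In that setting the cell cycle median turned to 0.62 between libraries and to -0.35 over type 2 cells in control, and other medians were -0.70 for type 1 identity, -0.10 for glycolysis, 0.19 for MHC class I and -1.96 for type 2 identity in control. At least 50 UMIs left 74 genes higher and 120 lower than in type 2 cells, 204 higher and 172 lower in creatine. The wider type 2 gate gave 334 lower genes. With equal weight per cell, the type 2 identity median was 0.88 between libraries and -2.12 over type 2 cells in control. Leaving out the highest doublet scores moved the cell cycle median over type 2 cells in creatine to 2.85. At 1000 UMIs, *Cxcl9* was found in 21.4% of control and 34% of creatine members and *Isg15* in 11.4% (5.07 to 21.3) and 22% (11.5 to 36.0), so the *Isg15* intervals, apart at 2000 UMIs, overlapped. The cause of these shifts was not tested. Over all alternatives run, the interferon-stimulated median between libraries lay from 1.81 to 2.09, the interferon-γ median from 1.35 to 1.64, and *Cxcl9* from 0.93 to 1.49. Depth and 1 library per condition limit every value.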
